A study of Sus scrofa with 5 samples.

Results

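The genes of glycolysis, lactate handling and glucose transport were followed in ovarian follicles from female pigs of the Indian Ghoongroo breed. They are 39 genes chosen by name as known parts of these pathways, out of 30822 genes listed: glucose transporters, hexokinases, the enzymes down to pyruvate kinase, lactate dehydrogenases, monocarboxylate carriers, pyruvate dehydrogenase with its kinases, and the mitochondrial pyruvate carrier. RNA sequencing covered 5 libraries, 3 from large and 2 from small follicles, and the design asks how the 2 size classes differ. Both groups are follicles of the same breed and sex with no stated treatment. Follicle diameters, the number of follicles in a library, the age of the animals and whether replicates were separate animals were not given in the sources used here. The sample titles label the replicates as biological. A p-value reflects only how far these samples spread, which may not be the spread between animals.

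Glycolysis splits glucose into pyruvate in the cytosol. Pyruvate is then either reduced to lactate by lactate dehydrogenase and exported, or carried into mitochondria and oxidised by pyruvate dehydrogenase. In the follicle the granulosa cells, which line an avascular compartment, are known for active glycolysis, and the oocyte, which uses glucose poorly, is known to take up the pyruvate they release. Phosphofructokinase is the main regulated step of the pathway, and fructose 2,6-bisphosphate, made and broken down by the PFKFB enzymes, is its strongest activator.

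Library totals lay between 9523739 and 11507527 fragments, and between 11784 and 13064 genes in each library reached an FPKM of 1, which is a fragment count divided by gene length and by sequencing depth. For a gene of 2000 bases, 3 fragments equal 0.130 to 0.158 FPKM, a floor that covers counting error only. Libraries of 1 group differed by more than sampling noise, with a chi-square per degree of freedom of at least 28.5, and each was counted as 1 sample. Mitochondrially encoded genes took 3.48%, 6.37% and 3.10% of fragments in large follicle replicates 1, 2 and 3, against 8.56% and 4.24% in the small ones. Among marker genes, 10 of 10 for granulosa cells and 8 of 8 for theca cells were above 0 in every library. Across all 13087 genes tested, 70 were higher and 58 were lower in large follicles at a limma adjusted p under 0.05, and 66 and 86 when libraries were scaled to a common FPKM sum. The 128 calls became 29, 268 and 222 without large follicle replicate 1, 2 or 3, and 78 and 60 without small follicle replicate 1 or 2. The median log2 fold change of all genes was -0.08, and -0.19 with that scaling.

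None of the glycolysis, lactate and glucose transport genes passed the test between large and small follicles. Of the 39 genes, 36 reached 1 FPKM in at least 2 libraries and were tested. At a Benjamini-Hochberg adjusted p under 0.05 over all genes, limma called 0 of the 36, against 0.978% of all genes tested, and limma voom on recovered fragments also called 0. At an unadjusted p under 0.05 both limma and limma voom counted 2, against 10.4% of all genes tested by limma. Log2 fold changes, large minus small, were above 0 for 16 genes and below 0 for 20, with a median of -0.04. Over all genes tested, 60.1% were below 0. For 31 of the 36 the estimate was under 0.5 in size. In bulk samples, fewer cells of a type and less RNA per cell cannot be told apart in any of these values.

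Values of the large and small libraries did not overlap for 4 of the 36 genes. PDK3 and MPC2 were higher in every large library, against 10.9% of all genes tested, and PFKP and PFKFB3 were lower in every large library, against 15.2% of all genes tested. These shares are no larger than the background. The 95% interval of the fold change lay within 2-fold in either direction for 26 of the 36 genes, against 63.4% of all genes tested. The interval reached past 2-fold for the other 10: SLC2A3, HK3, PFKP, PFKFB3, ALDOC, ENO1, SLC16A3, PDK1, PDK2 and PDK4.

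**Figure D1:**
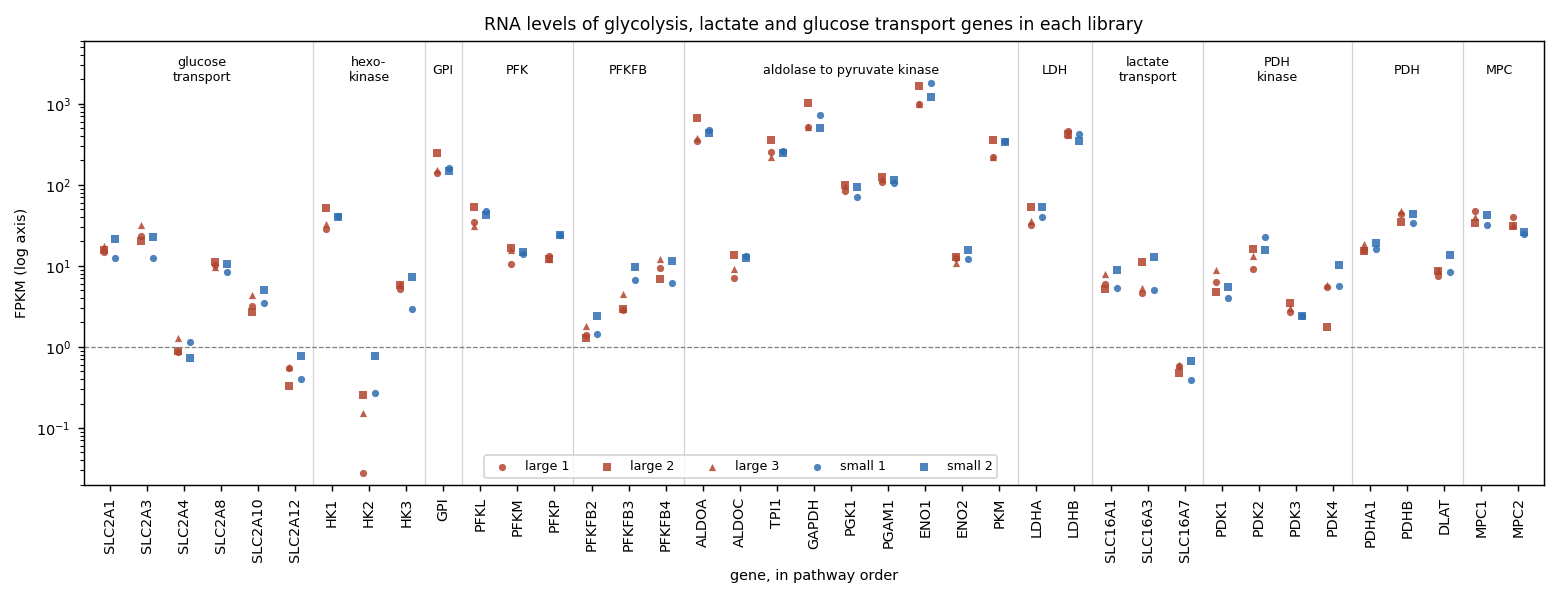
RNA level in FPKM (log axis) of the 39 genes in pathway order, with one point per library: red for large follicle replicates 1 to 3 and blue for small follicle replicates 1 and 2. The dashed line marks 1 FPKM. Levels run from HK2, under 1 FPKM in every library, to ENO1, between 984 and 1780.05 FPKM, and only PFKP, PFKFB3, PDK3 and MPC2 of the genes tested, with HK2 among those not tested, show red and blue points apart.

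SLC2A3 and SLC2A1 had the most abundant RNAs of the 6 glucose transporters in both size classes. SLC2A3, which encodes the high-affinity transporter GLUT3, had 23.6, 20.003 and 32.2 FPKM in large follicles, against 12.6 and 22.9 FPKM in small follicles. SLC2A1, which encodes the basal transporter GLUT1, had 15.0, 15.7 and 17.5 FPKM in large follicles, against 12.5 and 21.7 FPKM in small follicles. The groups overlapped for both, and the log2 fold changes were 0.52 ± 0.30 for SLC2A3 (SE, limma adjusted p = 0.647) and -0.04 ± 0.27 for SLC2A1 (limma adjusted p = 0.980). Within a library, the ratio of SLC2A3 to SLC2A1 was 1.57, 1.28 and 1.85 in large follicles, against 1.01 and 1.05 in small follicles, with no overlap. This ratio and the ratios, isoform shares and family sums below carry no test. How often such measures separate the groups over all genes was not taken.

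Myeloid cells are another known source of GLUT3 and of hexokinase 3. The summed FPKM of 11 myeloid markers was 210.2, 337 and 227 in large follicles, against 99.5 and 89.9 in small follicles, and all 10 markers that could be tested had higher values in large follicles. Limma called 1 of the 10, against 0.978% of all genes tested, and 7 had an unadjusted p under 0.05, against 10.4%. S100A8, a defining neutrophil marker, was at 0 in both small follicle libraries, while 8 of the 11 markers were above 0 in every library. The part of these cells in the SLC2A3 values was not tested.

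The other transporters were lower in level. SLC2A8, an intracellular transporter (GLUT8), had 10.1, 11.09 and 9.58 FPKM in large follicles, against 8.48 and 10.6 FPKM in small follicles. SLC2A10 (GLUT10) had 3.15, 2.69 and 4.37 FPKM in large follicles, against 3.46 and 5.06 FPKM in small follicles. Both overlapped between the groups. The insulin-responsive transporter SLC2A4 (GLUT4) stood at the edge of the filter, with 0.854, 0.902 and 1.29 FPKM in large follicles, against 1.16 and 0.735 FPKM in small follicles. SLC2A12 (GLUT12) was too low to be tested, at 0.330 to 0.563 FPKM in large and 0.396 to 0.775 FPKM in small follicles. Log2 fold changes of SLC2A8, SLC2A10 and SLC2A4 were 0.10, -0.26 and 0.05.

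Hexokinase traps glucose in the cell by phosphorylation, and HK1, the isoform most tissues use, was by far the most abundant. It had 28.2, 52.4 and 32.9 FPKM in large follicles, against 40.8 and 40.0 FPKM in small follicles, and the small values fell inside the range of the large ones. HK3 had 5.21, 5.84 and 5.90 FPKM in large follicles, against 2.92 and 7.31 FPKM in small follicles, here with the large values inside the range of the small ones. Log2 fold changes were -0.14 ± 0.27 for HK1 and 0.22 ± 0.35 for HK3 (SE), with limma adjusted p = 0.924 and 0.903. HK1 made up 83.2% to 92.7% of the summed FPKM of the 3 hexokinases in every library.

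HK2, the insulin- and hypoxia-responsive isoform of muscle and fat, was close to the counting floor and was not tested. It had 0.028, 0.257 and 0.153 FPKM in large follicles, against 0.269 and 0.767 FPKM in small follicles. These values rest on 1, 8 and 5 fragments in large follicles, against 8 and 24 fragments in small follicles. The FPKM values did not overlap, but large follicle replicate 2 and small follicle replicate 1 had the same 8 fragments, so no difference between them was detectable at this depth. GPI, which turns glucose 6-phosphate into fructose 6-phosphate, had 142, 246 and 152 FPKM in large follicles, against 160.2 and 150.2 FPKM in small follicles, and the small values lay within the range of the large ones.

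The smallest p of the 36 genes was found at the phosphofructokinase step. PFKP, the platelet-type isoform of phosphofructokinase (gene 100521394, Sscrofa11.1 chromosome 10, 67022652 to 67082336, minus strand), had 13.4, 12.2 and 12.2 FPKM in large follicles, against 24.1 and 24.4 FPKM in small follicles. All large values lay close together, well below both small values. The means were 12.6 ± 0.684 FPKM in large follicles (SD, n = 3) and 24.2 ± 0.197 FPKM in small follicles (SD, n = 2), a level 1.92-fold higher in small follicles. The log2 fold change was -0.89 ± 0.22 (SE) with a 95% interval of -1.37 to -0.41. Its limma adjusted p was 0.106, from an unadjusted p of 0.0022, so the difference did not pass the test over all genes.

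The other phosphofructokinase isoforms did not separate. PFKL, the liver type and the most abundant of the 3, had 35.2, 52.7 and 31.4 FPKM in large follicles, against 47.9 and 42.3 FPKM in small follicles. PFKM, the muscle type, had 10.7, 16.7 and 15.6 FPKM in large follicles, against 14.01 and 14.9 FPKM in small follicles. Log2 fold changes were -0.21 ± 0.25 for PFKL and -0.03 ± 0.26 for PFKM (SE). Phosphofructokinase is a tetramer that can mix isoforms, so the isoform shares were also taken. PFKP made up 22.6%, 14.9% and 20.6% of the summed phosphofructokinase FPKM in large follicles, against 28.0% and 29.9% in small follicles, with no overlap. The shares of PFKL and PFKM overlapped, as did the summed FPKM of the 3 genes, at 59.3, 81.7 and 59.3 in large follicles, against 86.0 and 81.5 in small follicles.

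PFKFB3 encodes a bifunctional enzyme whose kinase activity far exceeds its phosphatase activity, so that it raises fructose 2,6-bisphosphate (gene 100516289, chromosome 10, 64776315 to 64859118, minus strand, 2.16 Mb from PFKP). It had 2.81, 2.97 and 4.45 FPKM in large follicles, against 6.73 and 9.63 FPKM in small follicles. Every large value was below both small values, and the spread within each group was wider than for PFKP. Mean levels were 3.41 ± 0.903 FPKM in large follicles (SD, n = 3) and 8.18 ± 2.05 FPKM in small follicles (SD, n = 2), or 2.40-fold higher in small follicles. The log2 fold change was -1.06 ± 0.31 (SE) with a 95% interval of -1.74 to -0.37, an unadjusted p of 0.0066 and a limma adjusted p of 0.195.

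PFKFB4 and PFKFB2 belong to the same enzyme family. PFKFB4 had 9.45, 6.86 and 12.1 FPKM in large follicles, against 6.12 and 11.4 FPKM in small follicles. PFKFB2 had 1.40, 1.303 and 1.802 FPKM in large follicles, against 1.46 and 2.39 FPKM in small follicles. The groups overlapped for both, with log2 fold changes of 0.13 ± 0.33 and -0.21 ± 0.28 (SE). As shares of the summed FPKM of the 3 genes, PFKFB3 held 20.6%, 26.7% and 24.3% in large follicles, against 47.0% and 41.2% in small follicles. PFKFB4 held 69.1%, 61.6% and 65.9% in large follicles, against 42.8% and 48.6% in small follicles. The ratio of PFKFB3 to PFKFB4 was 0.298, 0.433 and 0.368 in large follicles, against 1.10 and 0.848 in small follicles, so PFKFB4 RNA was the more abundant in all 3 large libraries and in small follicle replicate 2. These PFKFB shares were computed after the values had been seen and carry no test.

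Granulosa markers went both ways. The summed FPKM of 10 granulosa markers was 5403, 13421 and 8035 in large follicles, against 4069 and 5551 in small follicles, which overlap, and INHA alone made up most of it. Of the 9 markers tested, 2 had higher and 7 had lower values in large follicles; INHBB, an activin and inhibin subunit, was the only one called. INHA, the inhibin alpha subunit, had a mean level 2.36-fold higher in large follicles (limma adjusted p = 0.443), and CYP19A3, an aromatase, one 3.21-fold higher (limma adjusted p = 0.181). FSHR, the receptor of follicle-stimulating hormone and a defining marker, had 5.47, 1.2004 and 8.06 FPKM in large follicles, against 15.5 and 16.6 FPKM in small follicles (limma adjusted p = 0.201). The part of cell composition in the PFKP and PFKFB3 values was not tested.

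**Figure D2:**
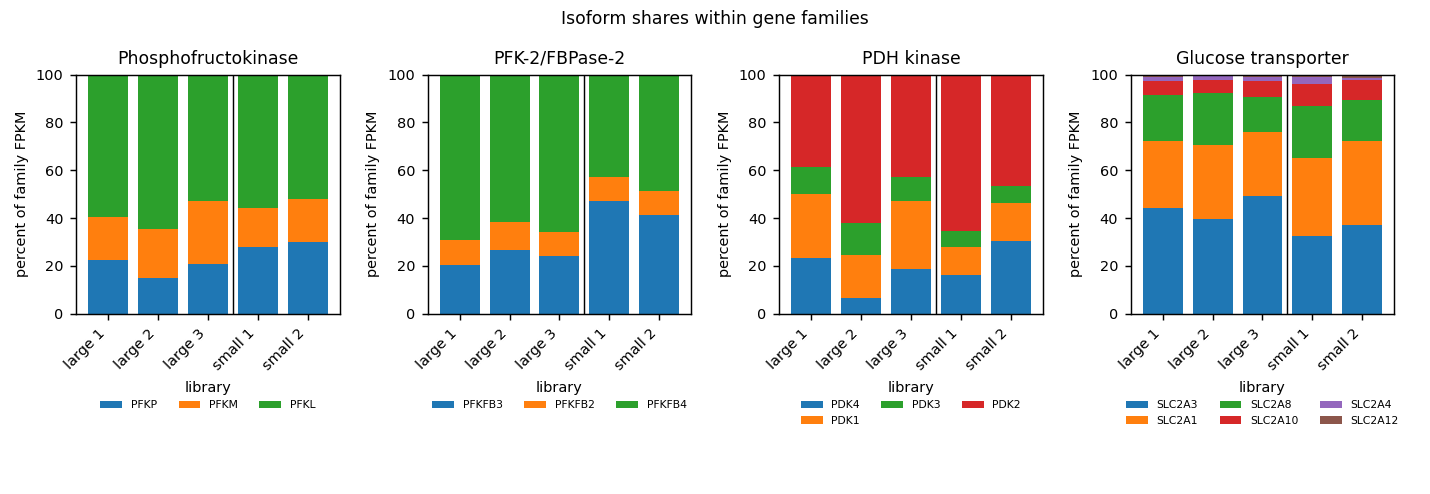
Share of each isoform in the summed FPKM of its family (percent, vertical axis) in large follicle replicates 1 to 3, left of the line in each panel, and small follicle replicates 1 and 2, right of it. The PFKP share was 14.9% to 22.6% in large and 28.0% to 29.9% in small follicles, and the PFKFB3 share 20.6% to 26.7% in large and 41.2% to 47.0% in small follicles; the panels of pyruvate dehydrogenase kinases and glucose transporters show smaller separations.

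The enzymes from aldolase to pyruvate kinase were among the most abundant RNAs of the follicle and did not differ beyond the spread between libraries. ENO1, the ubiquitous enolase, had the highest FPKM of the 39 genes in every library, with 1006, 1650.4 and 984 FPKM in large follicles, against 1780.05 and 1214 FPKM in small follicles. It ranked 115, 95 and 113 among all genes in large follicles, against 79 and 83 in small follicles. GAPDH, which makes the NADH that lactate dehydrogenase later uses, had 521, 1029 and 524 FPKM in large follicles, against 721 and 504 FPKM in small follicles. Both genes overlapped between the groups, with log2 fold changes of -0.32 ± 0.33 for ENO1 and 0.12 ± 0.34 for GAPDH (SE).

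ALDOA, the main aldolase, had 343, 673 and 381 FPKM in large follicles, against 476 and 429.9 FPKM in small follicles. TPI1, which interconverts the 2 triose phosphates, had 253, 358 and 223 FPKM in large follicles, against 261 and 248 FPKM in small follicles. PKM, the pyruvate kinase of most tissues, had 219, 355 and 219 FPKM in large follicles, against 345 and 336 FPKM in small follicles. In all 3, large follicle replicate 2 was the highest library of all and the other large libraries sat near or below the small ones. Their log2 fold changes were -0.02 ± 0.31, 0.10 ± 0.25 and -0.40 ± 0.26 (SE), and PKM had a limma adjusted p of 0.699.

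PGK1 and PGAM1, the kinase and mutase that follow GAPDH, varied less. PGK1 had 82.7, 100.03 and 96.9 FPKM in large follicles, against 70.9 and 95.04 FPKM in small follicles. PGAM1 had 109, 126 and 117 FPKM in large follicles, against 107 and 115 FPKM in small follicles. Neither separated the groups (log2 fold changes 0.18 ± 0.21 and 0.08 ± 0.19, SE). The minor isoforms followed at much lower levels. ALDOC, the brain-type aldolase, had 7.10, 13.7 and 9.21 FPKM in large follicles, against 13.3 and 12.5 FPKM in small follicles, and ENO2, the neuronal enolase, had 12.4, 13.0 and 10.97 FPKM in large follicles, against 12.3 and 15.7 FPKM in small follicles. Both overlapped, with log2 fold changes of -0.38 ± 0.29 and -0.18 ± 0.24 (SE).

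Much of the variation was between libraries of the same size class. Large follicle replicate 2 was the highest of the 5 libraries in 14 of the 36 genes tested, against 8.50% of all genes tested, and the lowest in 6, against 43.0% of all genes tested. The 14 were HK1, GPI, PFKL, PFKM, ALDOA, ALDOC, TPI1, GAPDH, PGK1, PGAM1, PKM and LDHA of the pathway from hexokinase to lactate, with SLC2A8 and PDK3. Small follicle replicate 2 was highest in 12 of the 36, against 45.9% of all genes tested. Summed over the 39 genes, FPKM came to 3539, 5407 and 3543 in large follicles, against 4750 and 3940 in small follicles, or 0.698%, 1.09% and 0.711% of all fragments in large follicles, against 0.955% and 0.802% in small follicles. The 2 libraries with the highest sums were also the library of each group with the larger mitochondrial share. Without those 2 libraries the median log2 fold change of the 36 genes was -0.27, and 0 were called by limma.

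Of 7 cell type marker lists, 5 also had their highest sum in large follicle replicate 2: granulosa, theca, myeloid, red cell, and smooth muscle with fibroblast. The 8 smooth muscle and fibroblast markers summed to 6035, 8027 and 6370 FPKM in large follicles, against 5676 and 5305 FPKM in small follicles. The 8 theca markers summed to 2078, 4430 and 2302 FPKM in large follicles, against 1230 and 935 FPKM in small follicles. Theca markers also went both ways: 6 had higher and 2 had lower values in large follicles. Their log2 fold changes ran from -1.02 to 3.07, and limma called 1, with higher values. The granulosa sums given above were 5403, 13421 and 8035 in large follicles, against 4069 and 5551 in small follicles. INHA alone gave 11739 FPKM in large follicle replicate 2, so these sums follow a few abundant genes. Single markers differed: INHA, CYP19A3 and CYP17A1 were highest in that library. FSHR, AMH and GJA1 of the granulosa list were lowest there, at 1.2004, 6.67 and 116 FPKM, as was PTCH1 of the theca list, at 1.59 FPKM. The part of composition, RNA quality or mitochondrial share in the replicate 2 pattern was not tested. SLC2A3, ENO2, TPI1 and GAPDH lie within 1.17 Mb of chromosome 5 (62963635 to 64135194). Of the 38 genes tested in that stretch, these genes among them, large follicle replicate 2 was the highest library in 11. That is 28.9%, against 8.50% of all genes tested. Limma called 0 of the 38, against 0.978% of all genes tested, and their median log2 fold change was 0.05.

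**Figure D3:**
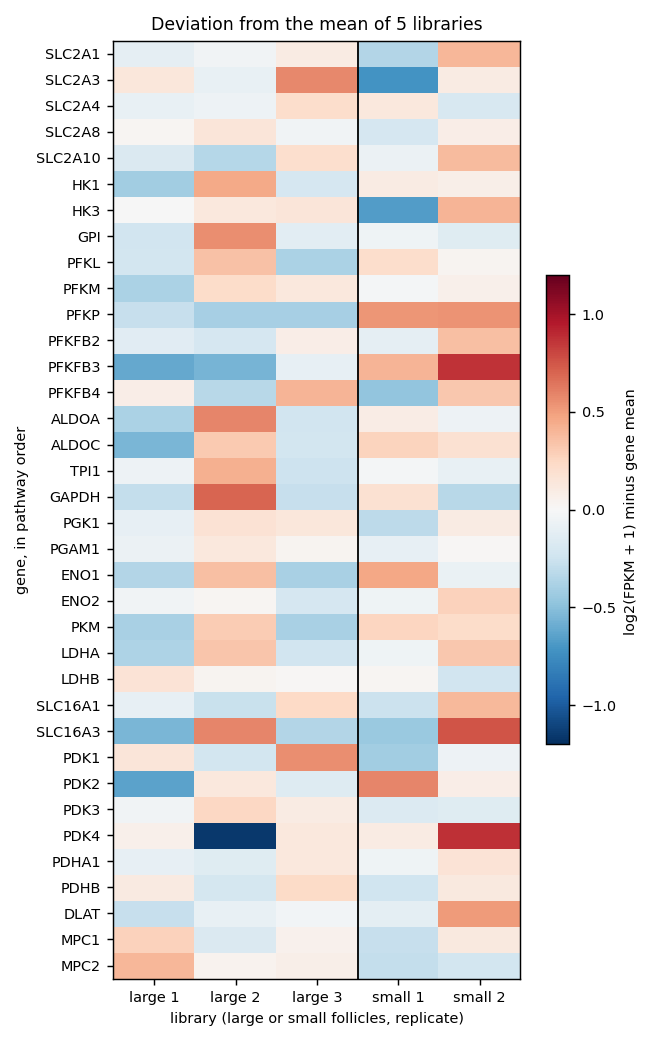
Deviation of log2(FPKM + 1) from the mean over the 5 libraries (color scale, log2 units) for the 36 genes tested, in pathway order down the page, with large follicle replicates 1 to 3 left of the line and small follicle replicates 1 and 2 right of it. Large follicle replicate 2 is the reddest column in 14 genes, 12 of them between HK1 and LDHA, while the rows of PFKP and PFKFB3 are red in both small libraries and blue in the large ones.

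Lactate dehydrogenase RNA was mostly of the heart-type subunit. LDHB, whose tetramer favours turning lactate into pyruvate (chromosome 5, 51810932 to 51831218), had 463, 422 and 415 FPKM in large follicles, against 419 and 351 FPKM in small follicles. LDHA, whose tetramer favours making lactate (chromosome 2, 40814163 to 40827284), had 32.3, 53.0 and 35.7 FPKM in large follicles, against 40.4 and 52.8 FPKM in small follicles. Both overlapped between the groups, with log2 fold changes of 0.17 ± 0.22 for LDHB and -0.22 ± 0.26 for LDHA (SE). The ratio of LDHB to LDHA was 14.3, 7.95 and 11.6 in large follicles, against 10.4 and 6.65 in small follicles, so LDHB was the more abundant per length in all 5 libraries while the groups overlapped. A second row named LDHB on chromosome 2, which shares its place with an annotated pseudogene, was listed at 0 in all libraries.

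Monocarboxylate transporters move lactate and pyruvate across the cell membrane. SLC16A1 (MCT1; chromosome 4, 107510920 to 107547609) had 6.03, 5.23 and 7.87 FPKM in large follicles, against 5.28 and 8.82 FPKM in small follicles. SLC16A3 (MCT4), the low-affinity carrier of cells that export much lactate, had 4.57, 11.3 and 5.40 FPKM in large follicles, against 5.01 and 12.8 FPKM in small follicles. Replicate 2 of each group was about as high as the other, and the remaining libraries of both groups were low. Log2 fold changes were -0.11 ± 0.31 for SLC16A1 and -0.26 ± 0.44 for SLC16A3 (SE), the second with the widest error of the 36 genes. The ratio of SLC16A1 to SLC16A3 was 1.32, 0.464 and 1.46 in large follicles, against 1.05 and 0.689 in small follicles, again overlapping. SLC16A7 (MCT2) was under the filter, at 0.477 to 0.593 FPKM in large and 0.394 to 0.676 FPKM in small follicles.

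A second locus annotated as monocarboxylate transporter 1, LOC100156854 (chromosome 4, 107615986 to 107639708), starts 68.4 kb after SLC16A1. It is not among the 39 genes and was looked up after values had been seen. It had 3.29, 5.79 and 6.36 FPKM in large follicles, against 1.31 and 2.19 FPKM in small follicles, from 131, 200 and 230 fragments in large follicles, against 43 and 76 in small follicles. Every large value was above both small values, with a log2 fold change of 1.14 ± 0.34 (SE, 95% interval 0.39 to 1.89) and a limma adjusted p of 0.202, between 0.0776 and 0.933 over the alternatives. Both are uncertain, since how fragments shared by the 2 loci were assigned was not given in the sources used here. Summed, they had 9.32, 11.02 and 14.2 FPKM in large follicles, against 6.59 and 11.01 FPKM in small follicles, which overlap.

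Pyruvate dehydrogenase kinases switch off pyruvate dehydrogenase by phosphorylation, and the 4 isoforms did not move together. PDK1, the hypoxia-responsive isoform, had 6.39, 4.73 and 8.84 FPKM in large follicles, against 3.999 and 5.42 FPKM in small follicles. PDK2, the widely expressed isoform, had 9.15, 16.3 and 13.3 FPKM in large follicles, against 22.7 and 15.8 FPKM in small follicles. PDK1 and PDK2 overlapped, with log2 fold changes of 0.40 ± 0.32 and -0.55 ± 0.29 (SE, limma adjusted p = 0.766 and 0.579). PDK2 overlaps SAMD14 on the opposite strand, a gene that reached 7.70 FPKM, and use of strand in counting was not given in the sources used here.

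PDK3 (chromosome X, 20486205 to 20598492) had 2.68, 3.50 and 3.04 FPKM in large follicles, against 2.38 and 2.42 FPKM in small follicles. All large values were above both small values, by a small step that gave a log2 fold change of 0.26 ± 0.27 (SE, limma adjusted p = 0.844). PDK4, the isoform induced by fasting and fatty acids, had 5.49, 1.78 and 5.77 FPKM in large follicles, against 5.62 and 10.4 FPKM in small follicles, with large follicle replicate 2 far below the rest. Its log2 fold change was -0.81 ± 0.43 (SE, limma adjusted p = 0.595). Together the 4 genes had 23.7, 26.3 and 30.9 FPKM in large follicles, against 34.7 and 34.0 FPKM in small follicles, with no overlap. Within that sum PDK1 held 26.9%, 17.96% and 28.6% in large follicles, against 11.5% and 15.97% in small follicles, and PDK3 held 11.3%, 13.3% and 9.84% in large follicles, against 6.86% and 7.11% in small follicles.

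The 3 pyruvate dehydrogenase subunits of the set, PDHA1, PDHB and DLAT, overlapped between the groups. PDHA1, the catalytic subunit that the kinases phosphorylate, had 15.5, 15.1 and 18.4 FPKM in large follicles, against 16.1 and 18.9 FPKM in small follicles. PDHB, its partner subunit, had 43.6, 34.7 and 47.5 FPKM in large follicles, against 34.2 and 44.1 FPKM in small follicles. DLAT, the acetyl-transferring core, had 7.44, 8.57 and 8.94 FPKM in large follicles, against 8.41 and 13.6 FPKM in small follicles. Log2 fold changes were -0.10 ± 0.23, 0.10 ± 0.23 and -0.33 ± 0.28 (SE).

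The mitochondrial pyruvate carrier is a dimer of MPC1 and MPC2. MPC2 (chromosome 4, 83069914 to 83091687) had 40.4, 31.3 and 31.97 FPKM in large follicles, against 24.8 and 25.9 FPKM in small follicles, with every large value above both small ones. The means were 34.5 ± 5.10 FPKM in large follicles (SD, n = 3) and 25.3 ± 0.818 FPKM in small follicles (SD, n = 2). The log2 fold change was 0.42 ± 0.21 (SE), with a limma adjusted p of 0.554. The microRNA gene MIR9810 lies inside MPC2 on the same strand, and reads of the pair may have been split. MPC1 had 47.0, 34.2 and 40.2 FPKM in large follicles, against 31.9 and 42.2 FPKM in small follicles, which overlap, with a log2 fold change of 0.13 ± 0.23 (SE). The ratio of MPC2 to MPC1, taken after the values had been seen, was 0.860, 0.914 and 0.795 in large follicles, against 0.777 and 0.614 in small follicles.

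**Figure D4:**
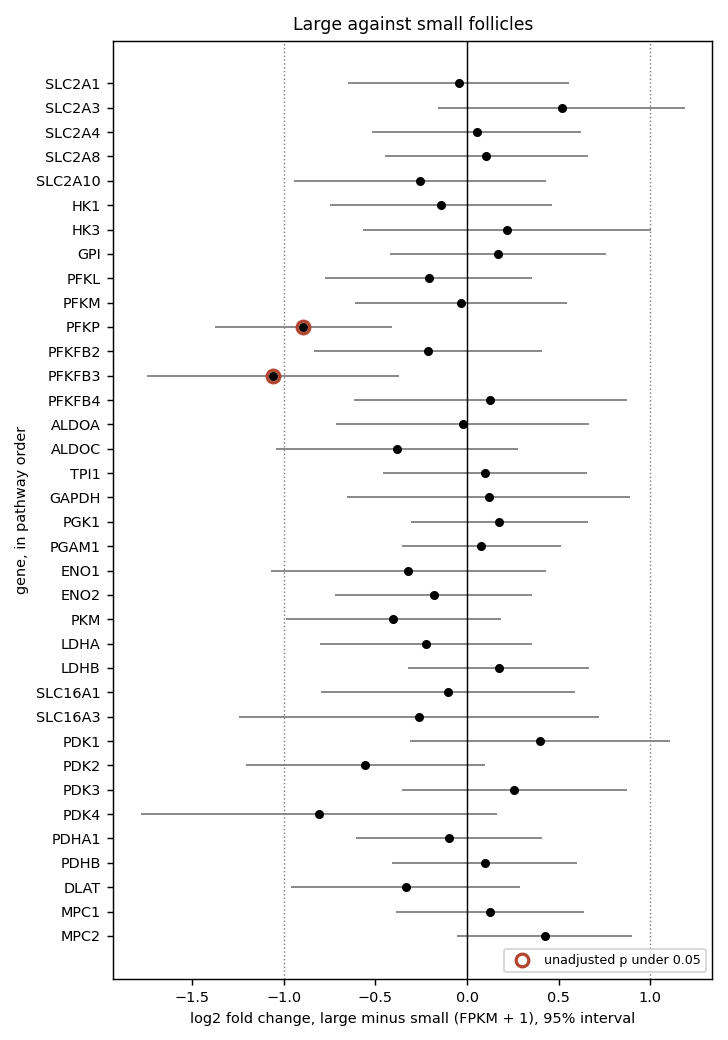
Log2 fold change of FPKM + 1, large minus small (horizontal axis), with 95% intervals from limma for the 36 genes tested, in pathway order; dotted lines mark 2-fold. Red rings mark PFKP (-0.89) and PFKFB3 (-1.06), the 2 genes with an unadjusted p under 0.05, and 26 intervals lie between the dotted lines.

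Genes around the pathway were counted in 5 further lists. Of the 105 genes tested in them limma called 0, against 0.978% of all genes tested, and limma voom called 0. At an unadjusted p under 0.05 limma counted 19 of the 105, against 10.4% of all genes tested. Among 13 other isoforms and subunits, 6 had higher and 7 had lower values in large follicles (median -0.04). The 3 with the smallest p were PDPR, which regulates pyruvate dehydrogenase phosphatase, at -0.81 ± 0.36 (SE, limma adjusted p = 0.469), the fructose transporter SLC2A5 at 0.89 ± 0.40 (limma adjusted p = 0.481) and the muscle enolase ENO3 at -0.21 ± 0.25 (limma adjusted p = 0.868). In the citrate cycle and malate-aspartate shuttle, 11 of 24 had higher and 13 had lower values (median -0.03). SUCLG2, a subunit of succinyl-CoA synthetase, was at -0.59 ± 0.22 (limma adjusted p = 0.353), the isocitrate dehydrogenase subunit IDH3A at -0.90 ± 0.35 (limma adjusted p = 0.387) and the succinate dehydrogenase subunit SDHC at 0.50 ± 0.20 (limma adjusted p = 0.419).

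Side branches were mixed. Of 28 genes of gluconeogenesis, glycogen, the pentose phosphate pathway and glycerol 3-phosphate, 11 had higher and 17 had lower values in large follicles (median -0.07). FBP2, the muscle fructose bisphosphatase that opposes phosphofructokinase, had 3.43, 6.29 and 3.26 FPKM in large follicles, against 1.13 and 1.07 FPKM in small follicles (log2 fold change 1.297 ± 0.32, SE, limma adjusted p = 0.116). PYGM, muscle glycogen phosphorylase, had 6.07, 8.61 and 6.12 FPKM in large follicles, against 2.89 and 3.11 FPKM in small follicles (0.97 ± 0.29, limma adjusted p = 0.202). BPGM, which makes 2,3-bisphosphoglycerate and is best known from red cells, had 11.13, 20.3 and 18.2 FPKM in large follicles, against 7.74 and 7.58 FPKM in small follicles (0.98 ± 0.29, limma adjusted p = 0.209). Every large value lay above both small values for 6 of the 28 genes, against 10.9% of all genes tested, and below for 5, against 15.2%. The groups did not overlap for any of the 3 named above, but these were picked by smallest p, which favours such separation. Other enzymes of the same branches, chosen after their values were seen, lay the other way. PYGL, liver glycogen phosphorylase, had 11.8, 29.5 and 20.4 FPKM in large follicles, against 39.6 and 31.3 FPKM in small follicles (-0.84 ± 0.34, limma adjusted p = 0.419). PC, the pyruvate carboxylase of gluconeogenesis, had 7.02, 15.5 and 10.7 FPKM in large follicles, against 18.9 and 19.3 FPKM in small follicles (-0.80 ± 0.31, limma adjusted p = 0.388). Red cell markers, 7 in all, summed to 1306, 1676 and 1005 FPKM in large follicles, against 702 and 234 FPKM in small follicles, almost all of it HBB. Of the 4 red cell markers tested 3 had higher values in large follicles, each at an unadjusted limma p under 0.05, against 10.4% of all genes tested. Limma called 0 of the 4. SLC4A1, a defining red cell membrane gene, was at 0 or near it in every library. The part of red cell RNA in the BPGM values was not tested.

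Regulators of glucose metabolism tended to lower values in large follicles: 2 of 21 had higher and 19 had lower values, against 60.1% of all genes tested with lower values. Their median was -0.39, against -0.08 over all genes. For 9 of the 21 every large value was below both small values, where the background given above is 15.2%. EPAS1, the HIF-2 alpha subunit of the hypoxia-inducible factors, had 10.1, 24.2 and 25.7 FPKM in large follicles, against 49.5 and 68.2 FPKM in small follicles (log2 fold change -1.60 ± 0.37, SE, limma adjusted p = 0.0915). TBC1D4, which holds GLUT4 inside the cell until insulin acts, was at -0.89 ± 0.29 (limma adjusted p = 0.280). HIF1A, which falls outside the naming rule and was chosen after its values were seen as the paralog of EPAS1, had 11.12, 41.9 and 44.4 FPKM in large follicles, against 50.9 and 83.5 FPKM in small follicles (-1.21 ± 0.51, limma adjusted p = 0.450). Large follicle replicate 1 was the lowest library for both factors.

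Known targets of hypoxia-inducible factors outside glycolysis did not follow one direction, with 7 of 19 higher and 12 lower in value (median -0.17). Lower values were found for 60.1% of all genes tested. Higher values in large follicles were found for ANGPTL4, an inhibitor of lipoprotein lipase, at 0.75 ± 0.23 (SE, limma adjusted p = 0.241), and DDIT4, an inhibitor of mTORC1, at 0.58 ± 0.22 (limma adjusted p = 0.385). P4HA1 and NDRG1, chosen after their values were seen, were lower in every large library. They were at -0.42 ± 0.23 and -0.34 ± 0.22 (SE, limma adjusted p = 0.606 and 0.688).

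**Figure D5:**
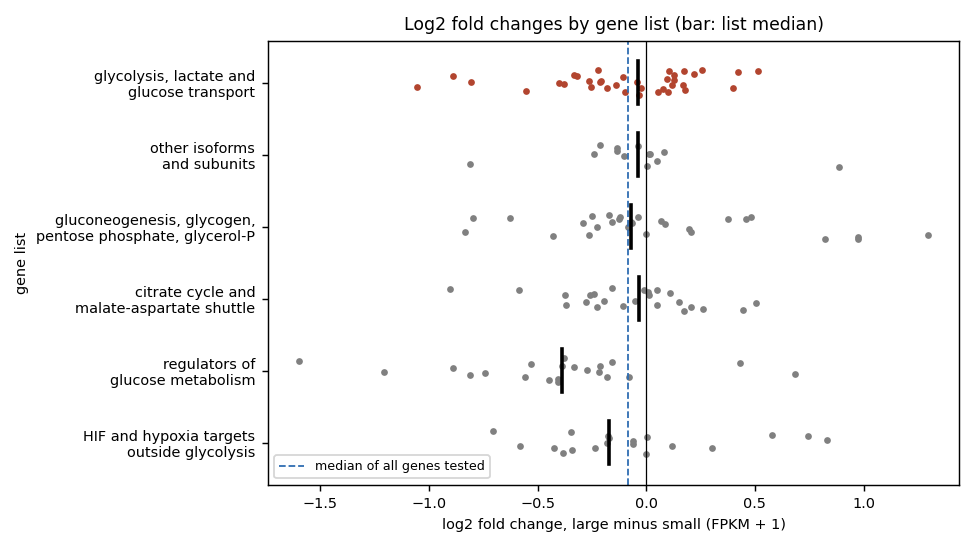
Log2 fold change, large minus small (horizontal axis), of each gene tested in 6 gene lists, glycolysis, lactate and glucose transport on top in red; black bars are list medians and the dashed line is the median of all genes tested, -0.08. The regulators have a median of -0.39, and the other 5 lists lie between -0.17 and -0.03.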

How the data were processed

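Follicle RNA was sequenced in 3 large and 2 small follicle libraries, grouped by sample titles. Per the labels' protocols, TRIzol RNA went into stranded, paired-end mRNA libraries. The authors deposited FPKM values per gene. The submitters' processing notes name the build Sscrofa11.1 and, without role or order, HISAT2 2.0.5, featureCounts 1.5.0-p3, StringTie 1.3.3, Trimmomatic 0.38 and FastQC 0.11.4. Strand use and the handling of shared reads were not given in the sources used here.

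A RefSeq table of that assembly matched 30335 of 30822 gene IDs and gave chromosome numbers. Totals and whole fragments were worked back from FPKM steps, within 0.001 of a fragment. Of 23353 genes above 0, 49.5% came out whole with their listed length and 11791 with a searched one. Among the 39 genes described, 24 had an effective length shorter than listed. Levels of different genes rest on these lengths.

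The test was limma 3.58.1 in R 4.3.3 (two-sided, mean-variance trend) on log2(FPKM + 1). It covered genes that reached 1 FPKM in 2 or more libraries. P-values were adjusted by Benjamini-Hochberg over all genes, and an adjusted p under 0.05 was a call. This scale understates fold changes of low genes. Errors are SD of FPKM or SE of log2 fold changes. The fit was tested on simulated data, in 10 runs with 200 changed genes each. It called 7.31% of 2-fold, 67.2% of 4-fold and 89.2% of 8-fold changes, and 5.23% of its calls were false. A change of 2-fold was thus mostly missed, and 0 calls do not show that such changes were absent. Tables and figures used pandas 2.3.3 and matplotlib 3.10.9.

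The genes, lists and tests were chosen with earlier results of these data known. Every gene of the set is reported, with full statistics for those called, those at an unadjusted p under 0.05, and those without overlap whose log2 fold change was 0.5 or more in size. Of other lists, called genes and the 3 with the smallest p are named, except a few genes not reported here. Alternatives were pseudocounts of 0.1 and 5, no filter or a minimum mean of 5 FPKM, 3 other scalings, a replicate block, voom on recovered fragments and leaving out each library. Leaving out large follicle replicate 2 together with small follicle replicate 1 was added after seeing the data.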

Additional observations from a re-analysis of the deposited data

How the results depend on the processing

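Under all 15 alternatives limma called 0 of the glycolysis, lactate and glucose transport genes. The lowest adjusted p of any of them was 0.0610. PFKP stayed between -1.01 and -0.73 (adjusted p 0.0984 to 0.795) and PFKFB3 between -1.29 and -0.64 (0.0610 to 0.817). Of the 36 genes, 17 kept their direction throughout and 19 turned somewhere, each with a main log2 fold change of at most 0.26 in size. Over all genes limma called 32 with no filter, 41 at a mean FPKM of at least 5, 202 under median-of-ratios scaling, 201 after quantile normalization and 70 with voom, against 128, and from 29 to 390 when libraries were left out. Of the other pathway genes, 1 was called with a common FPKM sum (EPAS1, adjusted p = 0.0366), and 0 to 4 without some libraries: EPAS1 alone without large follicle replicate 2 (0.00885) or 3 (0.00379), and EPAS1, HIF1A, IDH3A and TBC1D4 with both large replicate 2 and small replicate 1 left out.

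Replicate numbers 1 and 2 occur in both groups. Deviations of same-numbered libraries from their group means had r = -0.00 for number 1 and -0.45 for number 2. With only 2 small libraries, their deviations mirror each other. These values therefore cannot show whether same-numbered libraries were paired. The replicate block gave 157 calls over all genes and 2 among the other pathway genes (EPAS1 and HIF1A, adjusted p = 0.000677 and 0.00539), and turned SLC2A4 to -0.044, PFKFB4 to -0.050 and ALDOA to 0.088.

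Median-of-ratios scaling turned SLC2A1 to 0.050, PFKM to 0.058 and ALDOA to 0.072. A common sum turned SLC2A8 to -0.012, TPI1 to -0.027, GAPDH to -0.0066, PGAM1 to -0.047 and PDHB to -0.027, and the median of the 36 genes was -0.16. Quantile normalization turned SLC2A1 to 0.013, PFKM to 0.044, GAPDH to -0.094 and SLC16A1 to 0.0062. With libraries left out the log2 fold change ranged from -0.42 to 0.33 for SLC2A1, -0.11 to 0.25 for SLC2A4, -0.091 to 0.25 for SLC2A8, -0.40 to 0.041 for HK1, -0.34 to 0.76 for HK3, -0.077 to 0.32 for GPI, -0.19 to 0.15 for PFKM, -0.44 to 0.019 for PFKFB2, -0.27 to 0.53 for PFKFB4, -0.32 to 0.16 for ALDOA, -0.10 to 0.24 for TPI1, -0.21 to 0.38 for GAPDH, -0.085 to 0.39 for PGK1, -0.029 to 0.13 for PGAM1, -0.43 to 0.22 for SLC16A1, -1.21 to 0.34 for SLC16A3, -0.21 to 0.013 for PDHA1, -0.082 to 0.27 for PDHB and -0.071 to 0.32 for MPC1. Others kept their direction but moved far when libraries were left out: SLC2A3 from 0.11 to 0.92, PDK4 from -1.196 to -0.39, PDK2 from -0.80 to -0.30 and HIF1A from -1.85 to -0.59. The cause of these changes was not tested. Depth limits HK2, which rests on 1 to 24 fragments, and the number of libraries leaves intervals that pass 2-fold for 10 of the 36 genes.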
